A study of Mus musculus with 16 samples.

Results

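Wnt antagonists and Dact proteins were followed in inguinal white adipose tissue (iWAT), profiled by bulk RNA sequencing. It is the fat pad under the skin of the groin. The set holds 10 genes of the 54532 in the deposited table, found by symbol: the secreted frizzled-related proteins Sfrp1, Sfrp2, Sfrp4, Sfrp5 and Frzb, the other secreted antagonists Dkk2, Dkk3 and Wif1, and the intracellular Dact1 and Dact2. These genes were chosen by their measured levels as well as by family, since the large differences of Sfrp2 and Dact2 between Has2_TG and Has2_WT were known when the set was put together. Their values in that comparison are therefore a description, counts past a threshold included, and none of them is a test of the members. The members were tested in the PH20 mice, which share no animal with it. Each group had 4 libraries, 16 in all, from male mice that entered at 8 to 10 weeks of age and ate chow with 200 mg/kg doxycycline for 5 days. Has2_TG were Apn-Has2 mice, in which doxycycline switches on a Has2 transgene for hyaluronan synthesis. PH20_TG were Apn-PH20 mice with a Spam1 transgene for the hyaluronidase PH20. In both lines the doxycycline-responsive activator rtTA is made from the adiponectin promoter, which is active in adipocytes. Which cells held the transgene transcripts was not measured. Has2_WT and PH20_WT were the littermates of each line, labelled WT and described as Apn-rtTA controls on the same diet. Nothing in the labels says whether pads were pooled or how many litters were used, so the spread between libraries may in part be technical.

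Wnt ligands are secreted glycoproteins that bind Frizzled receptors and Lrp5 or Lrp6 co-receptors, stabilise β-catenin and switch on TCF/LEF target genes. Secreted frizzled-related proteins carry a Frizzled-like cysteine-rich domain that binds Wnts outside the cell. Wif1 binds Wnts through a domain of its own, and Dkk2 occupies the co-receptors. Dact proteins bind Dishevelled inside the cell and modulate the signal there. In fat, active Wnt/β-catenin signalling holds preadipocytes back from differentiation, and Sfrp5 is known as a secreted product of white adipose tissue.

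Each library held 14421692 to 26751729 reads assigned to genes (median over libraries 18452544.5), so that precision was limited by the number of mice for the well expressed members and by counting for the rare ones. All 12 adipocyte markers, such as Adipoq and Plin1, had reads in every library, with a summed FPKM (fragments per kilobase of gene and of library size) of 9108 to 26057. Has2 had 131 to 263 reads in Has2_TG and 30 to 93 in Has2_WT, while Spam1 had 0 reads in PH20_TG1 and in every library without that transgene and 5 to 12 in the other PH20_TG libraries. Has2 itself was uneven in PH20_TG, with 241, 32, 7 and 197 reads in PH20_TG1 to PH20_TG4. Some libraries stood apart in their cell content. The summed FPKM of 10 B cell markers was 274 to 343 in Has2_WT1 and Has2_WT2 and 129 to 346 in PH20_WT1 and PH20_WT3, against 1.93 to 6.53 in the other 12 libraries. Has2_TG2 and PH20_WT2 carried the most skeletal muscle RNA, with a summed FPKM of 1008 and 1155 over 12 muscle markers. In bulk tissue, fewer cells of a type and less RNA per cell cannot be told apart.

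FPKM is scaled to gene length, and the levels of different genes can therefore be set side by side. Over all 16 libraries, mean FPKM was 29.4 for Sfrp2, 9.01 for Dact2, 7.65 for Sfrp5, 6.82 for Sfrp4, 5.30 for Dact1, 2.72 for Dkk2 and 2.19 for Sfrp1. The remaining 3 genes were rare, with 0.477 for Dkk3, 0.332 for Frzb and 0.174 for Wif1. Sfrp2 exceeded Dact2 in 15 of 16 libraries, and Sfrp1 exceeded Dkk3 in all 16. Dact2 against Sfrp5, Sfrp5 against Sfrp4, Sfrp4 against Dact1, Dkk2 against Sfrp1, Dkk3 against Frzb and Frzb against Wif1 differed by less than the standard deviation of their difference over the libraries, and their order is open to that extent. Taking the median over libraries in place of the mean left 7 of the 10 genes at the same place in the order. Sfrp2 had the highest level of the 10 in 12 libraries and Sfrp5 in the other 4.

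**Figure D1:**
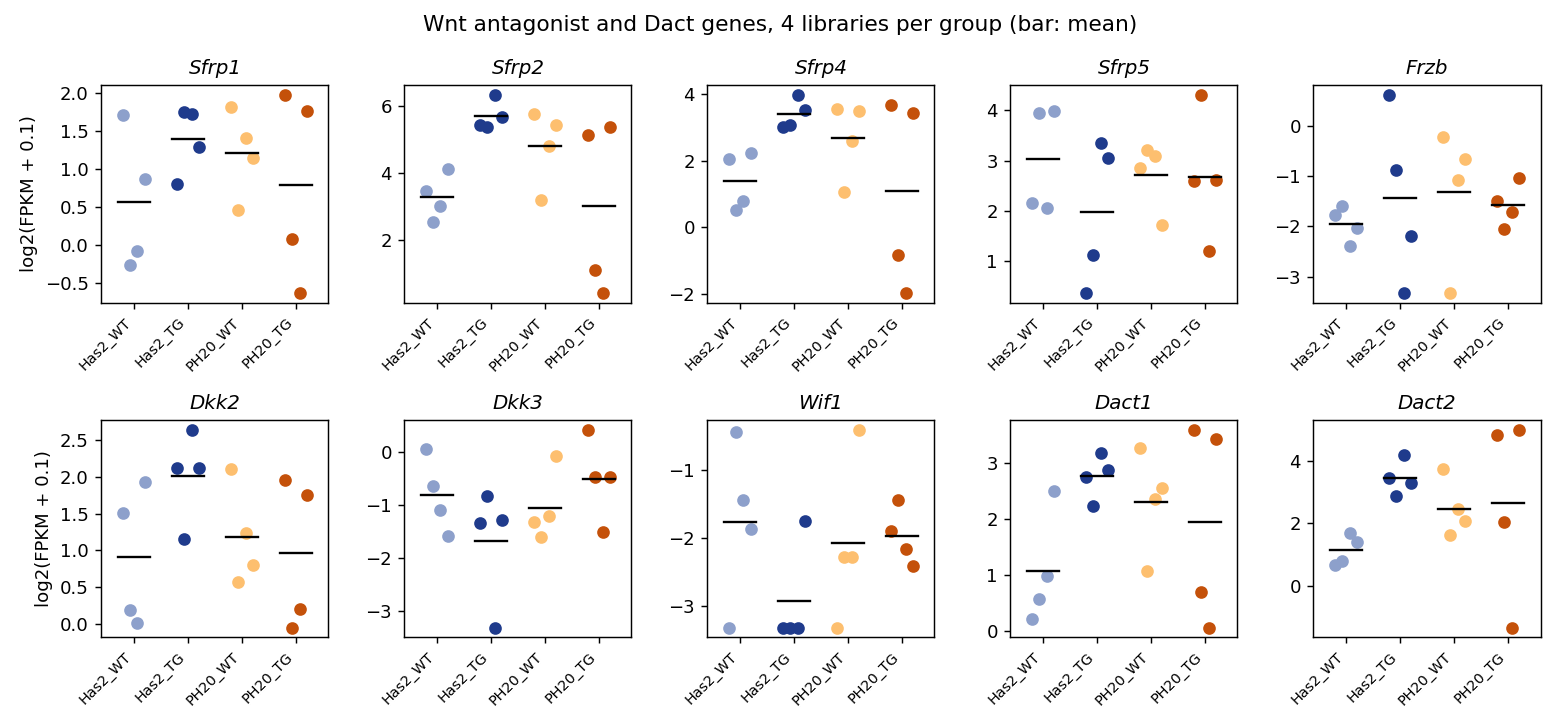
Each panel plots one gene as log2(FPKM + 0.1) on its own vertical scale, with a point for each of the 4 libraries of a group and a bar at the group mean. Sfrp2, Sfrp4 and Dact2 are higher in every Has2_TG library than in every Has2_WT library, and in PH20_TG most members split into a high and a low pair of libraries.

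Sfrp2 (ENSMUSG00000027996, GRCm38 chromosome 3 from 83766321 to 83774316, plus strand), a secreted Wnt-binding protein, was the most abundant member. Its FPKM was 10.9, 5.62, 7.85 and 17.3 in Has2_WT1 to Has2_WT4 and 42.9, 41.1, 80.3 and 50.9 in Has2_TG1 to Has2_TG4. All Has2_TG libraries lay above all Has2_WT libraries, with group means of 53.8 ± 18.2 and 10.4 ± 5.08 (SD, n = 4) and a difference of 2.42 on the log2 scale (SE 0.34). Sfrp4 (ENSMUSG00000021319, chromosome 13 from 19623104 to 19632994, plus strand), also a secreted frizzled-related protein, was at 4.04, 1.33, 1.65 and 4.57 FPKM in Has2_WT1 to Has2_WT4. In Has2_TG1 to Has2_TG4 it was at 7.88, 8.24, 15.6 and 11.4 FPKM, again without overlap. The log2 difference of Sfrp4 was 1.99 (SE 0.41). Sfrp1 (ENSMUSG00000031548, chromosome 8 from 23411502 to 23449632, plus strand) had 3.18, 0.735, 0.849 and 1.74 FPKM in Has2_WT1 to Has2_WT4 and 1.64, 3.27, 3.20 and 2.35 in Has2_TG1 to Has2_TG4. The groups overlapped through Has2_WT1, Has2_WT4 and Has2_TG1, and the log2 difference was 0.83 (SE 0.45).

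Sfrp5 (ENSMUSG00000018822, chromosome 19 from 42197971 to 42202252, minus strand) did not follow its relatives. It was at 4.35, 15.3, 4.06 and 15.7 FPKM in Has2_WT1 to Has2_WT4, and at 1.19, 2.06, 10.0 and 8.16 in Has2_TG1 to Has2_TG4. Has2_TG1 and Has2_TG2 lay below every Has2_WT library while Has2_TG3 and Has2_TG4 lay among them. The log2 difference was -1.07 (SE 0.73). When 1 library was left out, it ran from -1.53 without Has2_TG3 to -0.53 without Has2_TG1. The muscle markers also split Has2_TG in this way, with a summed FPKM of 469 and 1008 in Has2_TG1 and Has2_TG2 and of 37.2 and 39.5 in Has2_TG3 and Has2_TG4, where 7 and 8 of the 12 markers had 0 reads. With a skeletal muscle score as a covariate, the log2 difference of Sfrp5 was -1.10. Beyond that fit, the part of muscle RNA in the spread of Sfrp5 was not tested.

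Dkk2 (ENSMUSG00000028031, chromosome 3 from 132085292 to 132180304, plus strand), a ligand of the Lrp5 and Lrp6 co-receptors, had 2.73, 1.04, 0.906 and 3.72 FPKM in Has2_WT1 to Has2_WT4. In Has2_TG1 to Has2_TG4 it had 4.23, 2.13, 6.13 and 4.23 FPKM. All but Has2_TG2 exceeded every Has2_WT library, and the log2 difference was 1.10 (SE 0.48). Dact1 (ENSMUSG00000044548, chromosome 12 from 71309884 to 71320107, plus strand) was at 1.06, 1.39, 1.88 and 5.57 FPKM in Has2_WT1 to Has2_WT4 and at 6.60, 4.61, 9.0 and 7.27 in Has2_TG1 to Has2_TG4. Has2_WT4 alone reached into the Has2_TG range. The log2 difference was 1.69 (SE 0.45), 0.97 when the B cell score entered the fit and 1.02 without the B cell-rich Has2_WT1 and Has2_WT2, a setting chosen after seeing the data. Dact2 (ENSMUSG00000048826, chromosome 17 from 14195052 to 14204304, minus strand) was at 1.5, 1.65, 3.10 and 2.56 FPKM in Has2_WT1 to Has2_WT4. It was at 10.7, 7.29, 18.0 and 9.57 FPKM in Has2_TG1 to Has2_TG4, without overlap and with a log2 difference of 2.30 (SE 0.32).

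The 3 rare members had means of under 50 reads over the 8 libraries of either study, the minimum for testing, and were not tested. Frzb (ENSMUSG00000027004, chromosome 2 from 80411970 to 80447625, minus strand), also a frizzled-related protein, ranged from 5 to 17 reads in Has2_WT and from 0 to 117 in Has2_TG, where Has2_TG1 held the 117. Dkk3 (ENSMUSG00000030772, chromosome 7 from 112116017 to 112159057, minus strand), a divergent Dickkopf protein, ranged from 15 to 86 reads in Has2_WT and from 0 to 26 in Has2_TG. Wif1 (ENSMUSG00000020218, chromosome 10 from 121033960 to 121100650, plus strand) had 0 to 27 reads in Has2_WT and 0 reads in Has2_TG but for 10 in Has2_TG4. A count of 0 allows up to 3 reads, for counting error alone, and no direction was read from these genes.

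In the fit over all genes, 6.25% of the 12606 genes were higher and 3.75% lower in Has2_TG at limma's unadjusted threshold of 0.05. Of the 7 members in that fit, 5 lay past the threshold above and 0 below, which their choice had fixed in part and which is no test of them. Over all genes, 13 (0.103%) passed Benjamini-Hochberg adjustment, all higher, against 138 higher and 3 lower without Has2_WT4 and 0 without any other single library. In 3 of the 7 there was no overlap between groups, each with Has2_TG above, against 4.08% of all genes with Has2_TG above and 2.11% with Has2_TG below. The median log2 difference of the 7 was 1.69, against -0.03 over all genes tested. Because these differences chose the members, nothing is read from the counts.

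The levels of the PH20 controls bear on how far Has2_TG stands from control fat. Mean FPKM in PH20_WT was 33.5 ± 19.5 (SD, n = 4) for Sfrp2, 7.65 ± 4.57 for Sfrp4, 5.57 ± 3.08 for Dact1 and 6.39 ± 4.59 for Dact2. These means were 3.21, 2.64, 2.25 and 2.90 times those of Has2_WT, although both groups were controls on the same diet. When Has2_TG was set against all 8 control libraries, 1 of its 4 libraries lay above all of them for Sfrp2, Sfrp4 and Dact2, 3 for Dkk2, and 0 for Sfrp1, Sfrp5 and Dact1. Litter and line cannot be told apart in this comparison of controls.

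PH20_TG was compared with PH20_WT as the test of the members in other mice than those of the Has2 comparison. The group follows the labels, since at 0 to 12 Spam1 reads the transgene could not be checked firmly, and Has2 was at 3.32 and 3.26 FPKM in PH20_TG1 and PH20_TG4, above the 1.86 to 3.24 FPKM of Has2_TG. None of the 7 tested members was called (limma's moderated test, unadjusted threshold 0.05), and 0 were called with voom weights or after adjustment. With a general fibroblast score as a covariate, 2 were called lower (Sfrp2 and Sfrp4). In that fit, 790 of all 12532 genes tested were higher and 889 lower. Without the covariate, 3.2% of the 12532 genes were higher and 3.39% lower in PH20_TG, and 0% passed adjustment. The groups overlapped for all 7 members, as they did not for 2.21% of all genes with PH20_TG above and 2.33% with PH20_TG below. The spread within PH20_TG was wide, with ranges up to 105-fold.

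Sfrp2 was at 53.7, 9.0, 27.9 and 43.3 FPKM in PH20_WT1 to PH20_WT4 and at 35.1, 2.03, 1.22 and 40.9 in PH20_TG1 to PH20_TG4. PH20_TG1 and PH20_TG4 lay within the range of the controls, and PH20_TG2 and PH20_TG3 lay below every one of the other 14 libraries. The log2 difference was -1.80 (95% interval -4.48 to 0.88, limma adjusted p = 0.761). Sfrp4 was at 11.7, 1.98, 5.93 and 11 FPKM in PH20_WT1 to PH20_WT4 and at 12.5, 0.469, 0.158 and 10.7 in PH20_TG1 to PH20_TG4, with PH20_TG2 and PH20_TG3 again below every other library. Its log2 difference was -1.59 (95% interval -4.51 to 1.34, limma adjusted p = 0.809). Dact1 was at 9.49, 1.99, 5.01 and 5.78 FPKM in PH20_WT1 to PH20_WT4 and at 12.0, 1.52, 0.940 and 10.6 in PH20_TG1 to PH20_TG4, with PH20_TG1 and PH20_TG4 above and the other pair below every control. Its log2 difference was -0.36 (95% interval -2.30 to 1.57, limma adjusted p = 0.941).

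Dact2 was the member with the widest range. It was at 13.1, 2.99, 5.36 and 4.10 FPKM in PH20_WT1 to PH20_WT4 and at 28.3, 4.06, 0.302 and 31.6 in PH20_TG1 to PH20_TG4. The values of PH20_TG1 and PH20_TG4 were the highest of the 16 libraries and that of PH20_TG3, from 17 reads, the lowest, a 105-fold range within the group. The log2 difference of the means was 0.17 (95% interval -2.74 to 3.08, limma adjusted p = 0.984). Without PH20_TG3 it was 1.49 and without PH20_TG4 it was -0.61. For Sfrp2, the log2 difference was -0.93 without PH20_TG3, and for Sfrp4 it was -0.58. In 4 of the 7 members (Sfrp1, Sfrp5, Dact1 and Dkk2) the sign also turned when 1 library was left out, and in none of them was the difference called.

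Sfrp1 was at 3.44, 1.28, 2.55 and 2.12 FPKM in PH20_WT1 to PH20_WT4 and at 3.84, 0.954, 0.548 and 3.31 in PH20_TG1 to PH20_TG4. Its log2 difference was -0.41 (95% interval -1.76 to 0.94, limma adjusted p = 0.887). Dkk2 was at 4.21, 1.39, 2.26 and 1.65 FPKM in PH20_WT1 to PH20_WT4 and at 3.78, 0.868, 1.05 and 3.28 in PH20_TG1 to PH20_TG4, with a log2 difference of -0.21 (95% interval -1.41 to 0.99, limma adjusted p = 0.942). PH20_TG2 and PH20_TG3 were the lowest pair among the PH20_WT and PH20_TG libraries for both genes, but not among all libraries. Sfrp5 went its own way, at 7.08, 9.17, 8.38 and 3.18 FPKM in PH20_WT1 to PH20_WT4 and at 5.90, 19.7, 2.21 and 5.98 in PH20_TG1 to PH20_TG4. PH20_TG2, poor in Sfrp2, held the highest Sfrp5 of all libraries, and the log2 difference was -0.04 (95% interval -1.41 to 1.33, limma adjusted p = 0.995). Of the rare genes, Frzb had 0 to 56 reads in PH20_WT and 9 to 18 in PH20_TG, Dkk3 had 12 to 45 and 14 to 72, and Wif1 had 0 to 25 and 3 to 13.

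**Figure D2:**
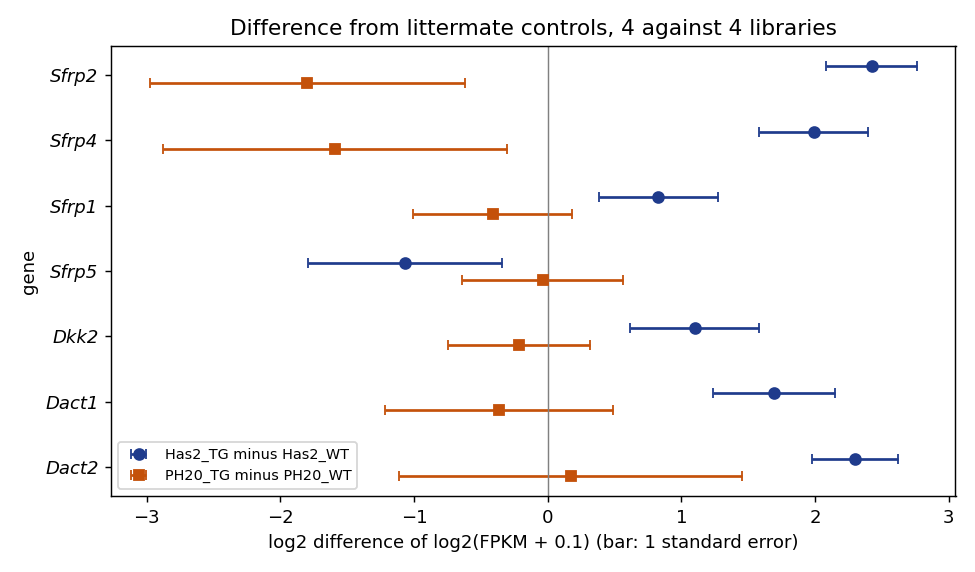
Points give the log2 difference of each tested gene from its littermate controls on the log2(FPKM + 0.1) scale, circles for Has2 and squares for PH20, with bars of 1 standard error (4 against 4 libraries). Has2 differences run from -1.07 for Sfrp5 to 2.42 for Sfrp2, and the PH20 bars are wider for all members but Sfrp5.

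Markers of other cell types differed alongside these genes. Interstitial progenitors, the Dpp4- and Pi16-expressing fibroblasts of the pad's connective tissue, were represented by 12 markers, all with reads in every library, and their summed FPKM was 128 to 291 in Has2_WT and 447 to 750 in Has2_TG. Of the 12, 9 were higher in Has2_TG and 0 lower at the unadjusted threshold. Of 11 general fibroblast genes such as Pdgfra and Col1a1, 9 were higher and 0 lower, and their summed FPKM was 452 to 847 in Has2_WT and 1029 to 1860 in Has2_TG. Of 10 macrophage markers, 7 were higher and 0 lower, with a summed FPKM of 182 to 378 and 364 to 571. Of 12 adipocyte markers, 0 were higher and 1 lower. Of 10 B cell markers 4 were lower in Has2_TG, and of 10 T cell markers 3, with 0 higher in either list. Among all genes tested, 6.25% were higher and 3.75% lower, and 0 markers of these lists passed adjustment. In the PH20 mice, summed FPKM of the interstitial progenitor markers was 215 to 662 in PH20_WT and, in PH20_TG1 to PH20_TG4, 686, 124, 119 and 674, with 0 of 12 markers called. Among all genes tested in these mice, 3.2% were higher and 3.39% lower, and 0% passed adjustment. Of 10 B cell markers 5 were lower in PH20_TG, and of 10 T cell markers 5, with 0 higher in either list. Of 9 committed preadipocyte markers tested, 3 were higher and 0 lower. Of 12 muscle markers, 10 were lower in PH20_TG and 0 higher. The summed FPKM of all 12 was 293 to 1155 in PH20_WT. It split PH20_TG otherwise, at 34.9, 54.2, 80.0 and 362 in PH20_TG1 to PH20_TG4. Whether cell content accounts for the levels of the members was not tested.

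**Figure D3:**
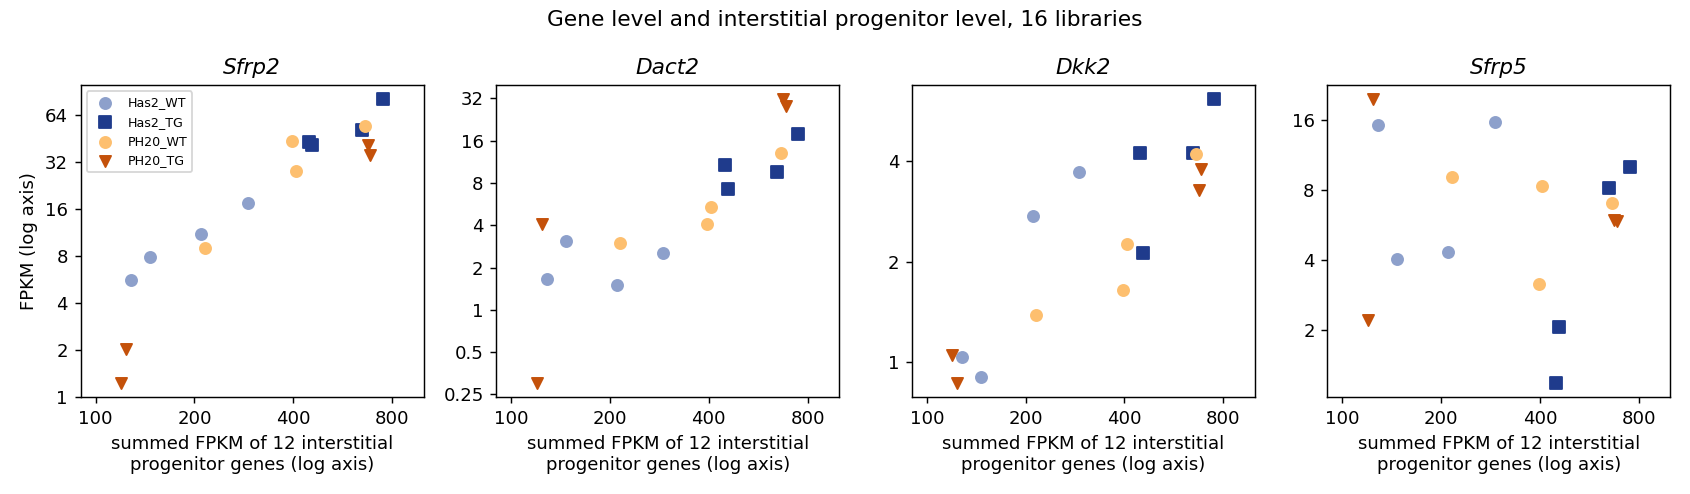
Each point is 1 of 16 libraries, with the summed FPKM of 12 interstitial progenitor markers on the horizontal axis and the FPKM of Sfrp2, Dact2, Dkk2 or Sfrp5 on the vertical axis, both logarithmic, and colour and shape giving the group. Sfrp2 climbs with the progenitor markers across all groups, from 1.22 FPKM in PH20_TG3 to 80.3 in Has2_TG3, while Sfrp5 shows no such order.

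To see which genes varied with each member inside a group, deviations of log2(FPKM + 0.1) from the 4 group means were correlated over the 16 libraries. These values describe 16 libraries that share depth and tissue content, and no test was attached. Sfrp2 and Sfrp4 went together almost in parallel (r = 0.99, n = 16), and each was the other's closest match among 12592 genes. Dact1 followed Sfrp2 at r = 0.94, Dact2 at 0.88, Sfrp1 at 0.86 and Dkk2 at 0.80. Sfrp5 was apart, with r from 0.04 to 0.26 against the other 6. With the interstitial progenitor markers, r was 0.98 for Sfrp2 and for Sfrp4, 0.92 for Dact1, 0.89 for Dact2, 0.88 for Sfrp1 and 0.85 for Dkk2, against 0.12 for Sfrp5. With the adipocyte markers these 6 genes went from -0.60 (Dact1) to -0.86 (Sfrp1). B cell markers, the most uneven in the controls, gave r from -0.11 to 0.28 for the 7 genes. Sfrp5 had its highest r with the committed preadipocyte list (0.66) and its lowest with skeletal muscle (-0.67).

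**Figure D4:**
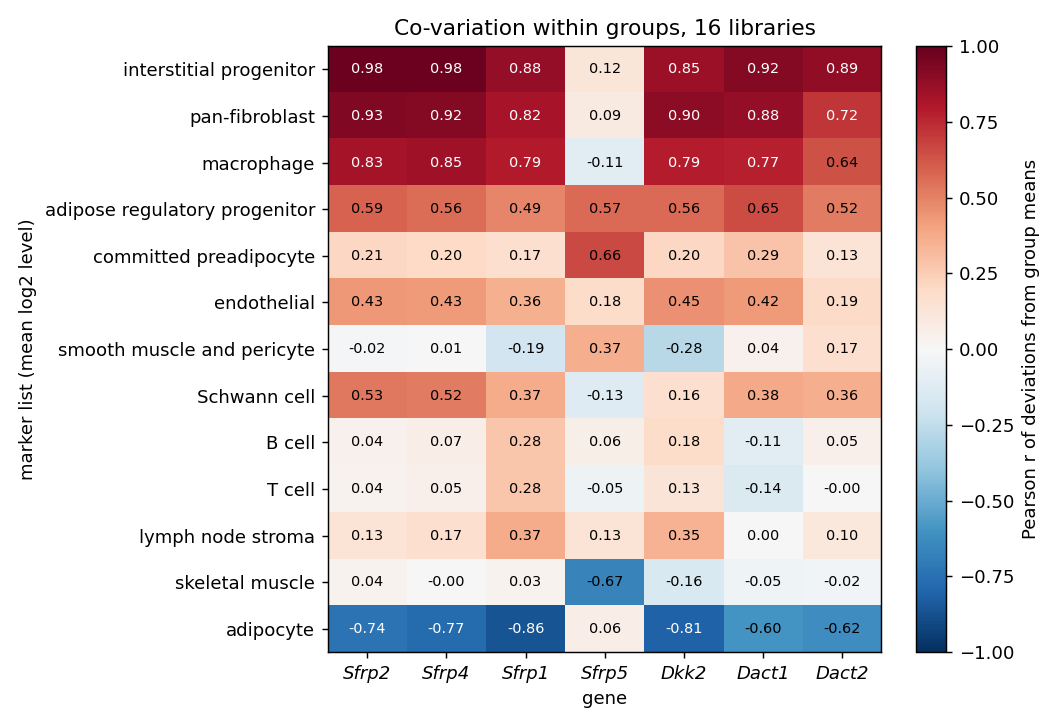
The colour and number of each cell give Pearson's r between the deviations of a gene (columns) and of the mean log2 level of a marker list (rows) from their group means over 16 libraries. The interstitial progenitor row is the highest for Sfrp2, Sfrp4, Sfrp1, Dact1 and Dact2, the general fibroblast row is the highest for Dkk2, and the Sfrp5 column is near 0 in both.

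The genes nearest to each member, by the highest r over the same 16 deviations, are given next. After Sfrp4, Sfrp2 was closest to Lrrn4cl (r = 0.99) and Flrt2 (0.99), and Sfrp4 to Col14a1 (0.99) and Flrt2 (0.99). Dact1 was nearest to Sdk1 (0.98), Creb5 (0.97) and Pamr1 (0.97). Dact2 was nearest to Wnt10b (0.95), a Wnt ligand that blocks adipogenesis, then Gfpt2 (0.95) and the interstitial progenitor marker Pi16 (0.94). Dkk2 was nearest to Ahnak2 (0.95), Antxr2 (0.95) and Plau (0.95), and Sfrp1 to Ackr2 (0.94), Pdpn (0.93) and Arhgap20 (0.93). Sfrp5 was nearest to C1qtnf7 (0.93), Emp1 (0.93) and Gm37795 (0.92).

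Since most general fibroblast genes were higher in Has2_TG, each member was also set against the mean log2 level of the 11 general fibroblast genes in the same library. Sfrp2 was -1.42 ± 0.40 log2 units relative to them in Has2_WT and -0.15 ± 0.22 in Has2_TG (SD, n = 4), and the groups did not overlap. Sfrp4 was at -3.30 ± 0.51 and -2.46 ± 0.13, also without overlap, and Dact2 at -3.55 ± 0.71 and -2.40 ± 0.38 with overlap. Dkk2 stood at -3.79 ± 0.55 and -3.84 ± 0.40, a difference within the spread, and Sfrp5 at -1.66 ± 0.997 and -3.88 ± 1.07, without overlap and with Has2_TG below. Dact1 was at -3.63 ± 0.87 and -3.08 ± 0.22 and Sfrp1 at -4.13 ± 0.66 and -4.46 ± 0.50, both with overlap. With the fibroblast score as a covariate, the log2 difference in the Has2 mice was 1.06 for Sfrp2, 1.93 for Dact2, 0.27 for Sfrp4, 0.51 for Dact1, -0.89 for Dkk2, -0.34 for Sfrp1 and -3.58 for Sfrp5. The summed FPKM of the fibroblast genes did not overlap between Has2_WT (452 to 847) and Has2_TG (1029 to 1860). That fit therefore extrapolates between the groups and cannot separate fibroblast level from group, and nothing is concluded from these values. In the PH20 mice the same covariate gave -1.99 for Sfrp2 and -1.80 for Sfrp4, which then passed the unadjusted threshold (limma adjusted p = 0.134 and 0.217), and left the other 5 members uncalled. Relative to fibroblast genes, Sfrp2 was at -0.66 ± 0.61 in PH20_WT and -2.54 ± 1.63 in PH20_TG, and Dact2 at -2.98 ± 0.45 and -2.90 ± 2.22.

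The mixture of antagonists also differed between libraries. Summed FPKM of the 10 genes was 21.0 to 51.7 in Has2_WT, 69.6 to 142 in Has2_TG, 28.1 to 104 in PH20_WT and 7.01 to 108 in PH20_TG. Sfrp2 made up 53.8% to 59.0% of the sum in Has2_TG and 19.7% to 37.8% in Has2_WT, while Sfrp5 made up 1.55% to 8.63% and 15.0% to 53.8%. In PH20_TG the share of Sfrp2 ran from 6.63% to 38.1% and that of Sfrp5 from 5.56% to 64.3%. The ratio of Sfrp2 to Sfrp4 had medians of 4.0, 5.06, 4.57 and 4.07 in Has2_WT, Has2_TG, PH20_WT and PH20_TG.

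**Figure D5:**
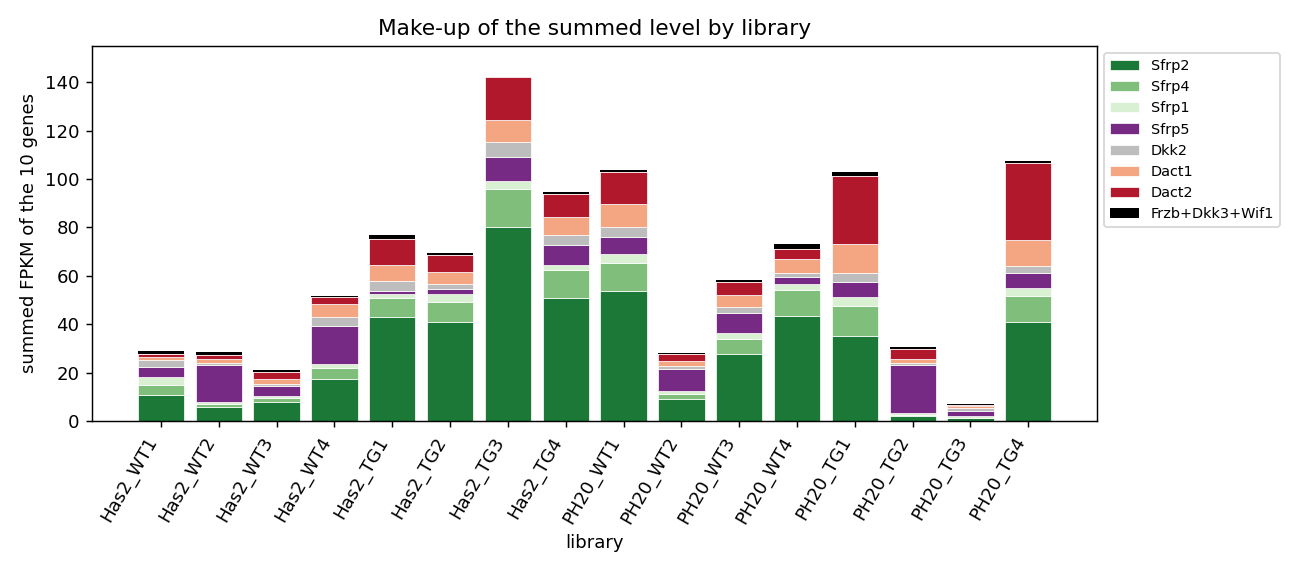
Stacked bars give the FPKM of each gene and their sum in each of the 16 libraries, with Frzb, Dkk3 and Wif1 added together. The tallest bar is Has2_TG3 at 142 and the shortest PH20_TG3 at 7.01, and Sfrp5 is the largest segment in 4 libraries.

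Since Sfrp2, Dkk2, Dact1 and Dact2 varied together, the 250 bases before their RefSeq starts (GRCm38.p6) are shown, with any TCF/LEF core motif in capitals. The motif was searched as CTTTGA or CTTTGT on either strand. It occurred in 27.6% of 32851 promoter windows of this length and in 2 of the 7 members that matched the table, Dkk2 and Frzb. Sfrp1, Sfrp4 and Dkk3 had no window. The windows lie at chr3:83766071-83766320 (plus strand, Sfrp2), chr3:132085042-132085291 (plus strand, Dkk2), chr12:71309634-71309883 (plus strand, Dact1) and chr17:14203832-14204081 (minus strand, Dact2, whose RefSeq start is 473 bases inside the gene model of the table).
Sfrp2: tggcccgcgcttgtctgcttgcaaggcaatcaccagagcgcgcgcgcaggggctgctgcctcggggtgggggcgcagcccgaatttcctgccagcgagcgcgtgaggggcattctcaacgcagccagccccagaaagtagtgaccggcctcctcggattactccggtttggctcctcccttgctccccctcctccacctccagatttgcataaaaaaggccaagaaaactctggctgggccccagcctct
Dkk2: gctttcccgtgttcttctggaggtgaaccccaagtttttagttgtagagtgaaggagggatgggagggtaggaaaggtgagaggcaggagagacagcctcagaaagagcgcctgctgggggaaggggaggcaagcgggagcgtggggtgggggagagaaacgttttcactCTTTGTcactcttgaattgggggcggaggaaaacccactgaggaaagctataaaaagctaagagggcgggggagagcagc
Dact1: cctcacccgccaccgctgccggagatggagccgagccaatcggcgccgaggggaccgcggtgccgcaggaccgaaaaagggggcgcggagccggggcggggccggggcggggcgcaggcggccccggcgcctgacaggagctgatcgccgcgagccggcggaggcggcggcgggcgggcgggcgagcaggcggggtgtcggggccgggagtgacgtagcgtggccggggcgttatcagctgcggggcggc
Dact2: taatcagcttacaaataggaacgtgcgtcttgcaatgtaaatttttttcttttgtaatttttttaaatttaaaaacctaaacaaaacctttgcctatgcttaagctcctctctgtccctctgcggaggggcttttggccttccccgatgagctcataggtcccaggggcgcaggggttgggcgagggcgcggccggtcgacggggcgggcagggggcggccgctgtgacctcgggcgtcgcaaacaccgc
In Dkk2 the motif begins 80 bases before the start, and in Frzb, read on the other strand, 95 bases before it. The Dact1 window is 80.4% G or C with 41 CpG dinucleotides, more than in 98.9% of all windows, against 16 in Sfrp2, 18 in Dact2 and 7 in Dkk2 and a median of 6. The other 3 printed windows hold no match, which says only that these letters are absent from them.

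The rest of the Wnt pathway was covered by 6 lists of ligands, receptors, R-spondin partners, other inhibitors, intracellular components and TCF/LEF factors with their targets, in all 109 genes found in the table. Of these, 68 were tested in Has2_TG against Has2_WT, 7 were higher and 1 was lower, a share of 11.8% against 10.0% of all genes tested in either direction, and 0 passed adjustment. The median log2 difference of the 68 was 0.07. In PH20_TG against PH20_WT, 68 were tested, 2 were higher and 2 lower (5.88% against 6.59%), and 0 passed adjustment. The lists were chosen with earlier results of these data known, so their counts and p-values are no independent test.

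Of 19 Wnt ligands, 5 were tested in the Has2 mice, and 3 were higher in Has2_TG. Wnt2, which is also an interstitial progenitor marker, was at 0.928, 0.661, 0.653 and 3.02 FPKM in Has2_WT1 to Has2_WT4 and at 9.32, 4.03, 13.6 and 7.17 in Has2_TG1 to Has2_TG4. Its log2 difference was 2.76 (SE 0.51, limma adjusted p = 0.0741). Wnt10b, an anti-adipogenic ligand, was at 1.67 ± 0.650 FPKM in Has2_WT and 5.55 ± 1.21 in Has2_TG (SD, n = 4), with a log2 difference of 1.72 (SE 0.30, limma adjusted p = 0.0687). Wnt11, a ligand of the β-catenin-independent branch, was at 1.35 ± 0.536 and 4.08 ± 1.65 FPKM, a log2 difference of 1.54 (SE 0.35, limma adjusted p = 0.105). Each of the 3 was without overlap between Has2_TG and Has2_WT, whereas Wnt5a and Wnt9a were not called. In PH20_WT, Wnt2 ran from 1.83 to 7.59 FPKM, Wnt10b from 1.33 to 5.57 and Wnt11 from 1.55 to 4.09. The controls of the other line thus reached into the Has2_TG range for each. With the general fibroblast covariate, 1 of the 3 was still called (Wnt10b, 1.46, limma adjusted p = 0.611). In that fit Wnt2 was at 0.93 (limma adjusted p = 0.754) and Wnt11 at 1.04 (limma adjusted p = 0.707). With all 16 libraries in one fit, Wnt10b was not called (limma adjusted p = 0.486), while Wnt2 and Wnt11 kept their calls. In the PH20 mice 0 of the 5 ligands were called. There Wnt2 was at 11.7, 0.557, 0.0266 and 13.1 FPKM in PH20_TG1 to PH20_TG4, high and low in the same libraries as Sfrp2.

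Of 12 tested Wnt receptors and co-receptors, 2 were higher in Has2_TG and 0 lower. Ror2, a receptor for Wnt5a, was at 0.219 ± 0.171 FPKM in Has2_WT and 1.0 ± 0.585 in Has2_TG (SD, n = 4, limma adjusted p = 0.283), and Fzd2 at 1.19 ± 0.186 and 3.50 ± 2.41 (limma adjusted p = 0.390), with groups that overlapped. Fzd2 missed the threshold without Has2_TG3 (log2 difference 0.85) or Has2_TG4 (1.13), and Ror2 fell under the read minimum without Has2_TG1 or Has2_TG3. The R-spondin axis had 0 of 2 tested genes called. Of the other Wnt inhibitors, secreted, membrane-bound or intracellular, 0 of 6 tested were called in the Has2 mice. Among the relatives outside the set, Dact3 was at 0.819 ± 0.546 FPKM in Has2_WT and 1.63 ± 0.728 in Has2_TG (SD, n = 4) and was not called. Dkk1 had 0 reads in all 16 libraries, and Dkk4 had 2 reads in Has2_TG1 and 0 in the others. The acrosomal relative Dkkl1 had 0 to 24 reads and was not tested. Of 30 intracellular components, 1 was higher and 1 lower in Has2_TG: the Wnt carrier Wls at 7.63 ± 1.36 and 10.1 ± 1.12 FPKM (SD, n = 4, limma adjusted p = 0.475) and the β-catenin kinase Gsk3a at 22.9 ± 2.67 and 16.1 ± 0.505 (limma adjusted p = 0.173). Wls missed the threshold when any of Has2_WT1, Has2_WT2, Has2_TG1, Has2_TG3 or Has2_TG4 was left out (0.30 to 0.41), and Gsk3a kept its call without any one library.

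Of 16 tested TCF/LEF factors and target genes, 1 was higher in Has2_TG and 0 were lower, a share of 6.25% against the 10.0% of all genes called in either direction. It was Wisp2, at 2.89 ± 1.70 FPKM in Has2_WT and 7.09 ± 3.59 in Has2_TG (SD, n = 4), a log2 difference of 1.27 (SE 0.45, limma adjusted p = 0.364), and it missed the threshold without Has2_WT3, Has2_TG3 or Has2_TG4 (at most 1.05). Axin2, a widely used readout of β-catenin signalling, was at 3.78 ± 0.645 and 5.03 ± 2.36 FPKM, a log2 difference of 0.32 (SE 0.29, limma adjusted p = 0.773). In PH20_TG against PH20_WT, the called genes were Trabd2b, a membrane protease that inactivates Wnts, at 7.66 ± 2.23 against 4.98 ± 1.36 FPKM (SD, n = 4, limma adjusted p = 0.731), Fosl1 at 2.32 ± 0.583 against 1.3 ± 0.448 (limma adjusted p = 0.702), Dvl2 at 2.71 ± 0.448 against 3.79 ± 0.656 (limma adjusted p = 0.709) and Celsr2 at 2.59 ± 0.246 against 3.36 ± 0.346 (limma adjusted p = 0.731). Of the 8 fits that left out 1 library, Celsr2 was called in 2, Dvl2 and Trabd2b in 3 each, and Fosl1 in 5 of the 7 in which it passed the read minimum. Trabd2b was not called without the B cell-rich PH20_WT1 and PH20_WT3 either (log2 difference 0.29), a setting chosen after seeing the data.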

How the data were processed

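Bulk RNA sequencing of 16 iWAT libraries, 4 in each of 4 groups, was analysed from the deposited table of 54532 genes. The authors aligned reads with STAR (2.7.9a, GRCm38, per the labels) and deposited FPKM values with gene lengths. The STAR count column, and so the use of strand, is not given in the sources used here. Opposite-strand genes that overlap Sfrp2, Dact1 and Dact2 had at most 4 reads.

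Multiplying FPKM by gene length gave whole reads for 100% of values (tolerance 0.01), used for depth and filters. For each comparison, genes that averaged 50 reads or more across its 8 libraries were tested on log2(FPKM + 0.1) with limma 3.58.1 in R 4.3.3 (trend, two-sided), which understates changes of low genes. Calls used an unadjusted p of 0.05, the threshold of the study's methods, with Benjamini-Hochberg adjustment over all genes beside it. The scripts were tested on simulated data. The members and lists were chosen with earlier results of these data known. Named genes were the members, up to 4 called genes with the smallest p of each pathway list, other Dkk and Dact genes, and the 3 genes with the highest r for each member. Promoters came from RefSeq. Alternatives were other pseudocounts, filters, scalings, voom weights, covariates, a replicate block, all libraries in one fit, and leaving out each library.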

Additional observations from a re-analysis of the deposited data

Results flagged for a closer look

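Wif1 stood out in 1 library. Has2_TG4 held 0.197 FPKM from 10 reads, while the other 3 Has2_TG libraries had 0 reads, so the gap was the whole range of the group, as any value above 0 would have made it, and nothing is read from it. Of 40 groups of 4 libraries checked this way, 1 stood out, and chance gives about 1 in 20.

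For 3 genes of the Wnt pathway lists, the log2 change in the Has2 mice differed from that in the PH20 mice in a limma interaction test at the unadjusted threshold. The Has2 change minus the PH20 change was -0.61 for Gsk3a (limma adjusted p = 0.567), 3.96 for Wnt2 (limma adjusted p = 0.613) and -0.45 for Dvl1 (limma adjusted p = 0.613). Of 67 pathway genes in that test, 0 passed adjustment, nor did any of the 12593 genes fitted, of which 970 were under 0.05 unadjusted.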

How the results depend on the processing

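As a description and no test, since this comparison chose them, 5 Has2 members lay past the threshold above and 0 below, 3 above with all 16 libraries in one fit, 2 with a general fibroblast covariate and 4 to 6 when 1 library was left out. Sfrp5 lay past it below with the fibroblast covariate (-3.58) and with a skeletal muscle covariate (-1.10). With the fibroblast covariate Dkk2 turned to -0.89, Fzd2 to -0.077 and Wisp2 to -0.74 on the log2 scale. Fibroblast level did not overlap between Has2_WT and Has2_TG, so that fit cannot separate it from the group in the Has2 mice. Of the other Wnt pathway genes, 8 were called in the Has2 mice and 4 with the fibroblast covariate. With 1 library left out, 4 (without Has2_TG3) to 13 (without Has2_WT4) were called. In the PH20 mice 0 members were called, also with any 1 library left out, and 2 with the fibroblast covariate. With that covariate 790 of all 12532 genes were higher and 889 lower, against 401 and 425 without it. Other Wnt pathway genes numbered 4, but 7 with no read minimum, 1 with all 16 libraries in one fit, 0 with a skeletal muscle covariate, 8 with the fibroblast covariate, and 1 (without PH20_WT3) to 5 (without PH20_WT4) with 1 library left out. The cause of these shifts was not tested. Deviations of same-numbered libraries had r from -0.18 to 0.13 in the Has2 mice. In the PH20 mice r was 0.35 and 0.42 for numbers 1 and 2 and -0.03 and -0.04 for 3 and 4. Since not every pair was above 0.1, the numbers were not taken to pair animals. With the replicate number as a block, 1 PH20 member was called (Sfrp2, limma adjusted p = 0.453). Without the B cell-rich controls, an alternative chosen after seeing the data, 0 PH20 members were called. With 4 libraries a group, the spread between mice limits the precision, and for Frzb, Dkk3 and Wif1 the counts do.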
